A study of Mus musculus with 9 samples.

Results

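The genes described here are those of the semaphorin, plexin, Slit, Robo, ephrin, Eph, netrin and Unc5 families, the classical ligands and receptors of axon guidance. They were taken by gene symbol alone, without a filter on any measured value, and 66 of the 21936 genes in the table belonged to these families. The families themselves were chosen with earlier results of these data known. Expression was measured by RNA sequencing of cells sorted as lymphatic endothelial cells from the livers of IL7-GFP knock-in mice, which carry a green fluorescent reporter at the Il7 locus in all 3 groups. Bile duct ligation (BDL), a surgical block of bile outflow that causes cholestasis and scarring of the liver, had been performed 2 or 4 weeks before collection in the ligated groups, and the control mice had sham surgery. Each group had 3 libraries. The sorting gate, the strain background, the age of the mice and the interval after sham surgery are not known from the labels.

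Guidance ligands steer the growing tips of axons and vessels by attraction or repulsion. Semaphorins act through plexins, with neuropilins as co-receptors for most of the secreted class, and plexins act on small GTPases to collapse the cytoskeleton; Slits act through Robo receptors, and netrins through Unc5, Dcc and neogenin. Ephrins are bound to the membrane and signal to Eph receptors on neighbouring cells, while the ephrin itself also signals back into its own cell. In lymphatic vessels, ephrin-B2 with EphB4 and semaphorin 3A with neuropilin-1 and plexin-A1 are known for their part in forming valves.

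The deposited values are gene counts scaled by 1 factor per library, called normalized counts. Whole reads could be recovered from them. Sham replicate 2 had the fewest, 592419, 2-week replicate 1 the most, 5314381, and the remaining 7 libraries between 2259239 and 4450196. In sham replicate 2, 1 read was worth 5.26 normalized counts, against 0.589 to 1.23 elsewhere, and its median correlation with the other libraries across genes was 0.774. That library also had the lowest summed level of lymphatic endothelial markers, 6992 normalized counts, where the other sham libraries had 35384 and 44577, the 2-week libraries 16765 to 48520 and the 4-week libraries 26918 to 48126. Of the 11 lymphatic markers on the list, Ccl21a was at or near 0 in every library, and the others, Prox1, Lyve1 and Flt4 among them, were detected. Macrophage and Kupffer cell markers summed to 34525 to 80514 in sham, 34869 to 75158 at 2 weeks and 18745 to 42036 at 4 weeks, so that macrophage transcripts were present in each library. Markers of Schwann cells and neurons, the usual setting of these families, summed to at most 36.8 normalized counts in any library.

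Of the 66 guidance genes, 46 reached a mean of 10 normalized counts over the 9 libraries and were tested, and 20 lay below that minimum. Divided by exon length, so that genes can be compared with each other, the highest mean levels were those of Plxnb2 (a receptor of class 4 semaphorins), with 167 normalized counts per kb of exon, and Ephb4 (the receptor of ephrin-B2), with 164. Sema6d, a transmembrane semaphorin, followed with 114, Plxnd1, a vascular plexin, with 90.04, and Sema6a, another transmembrane semaphorin, with 86.5. These 5 genes carried 39.2% of the level per kb summed over all 66, and the first 10 carried 60.5%. Both partners of several known pairs were among those 20 highest genes per kb, which together carried 88.1%: Efnb2 (58.1) with Ephb4, Efna1 (43.9) with Epha2 (58.0), Ntn1 (73.2) with Unc5b (45.5), and Sema3a (42.8) with Plxna1 (45.5). No Slit was among these 20 genes. Of the Robos, the endothelial Robo4 was among them, with 52.1 per kb.

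**Figure D1:**
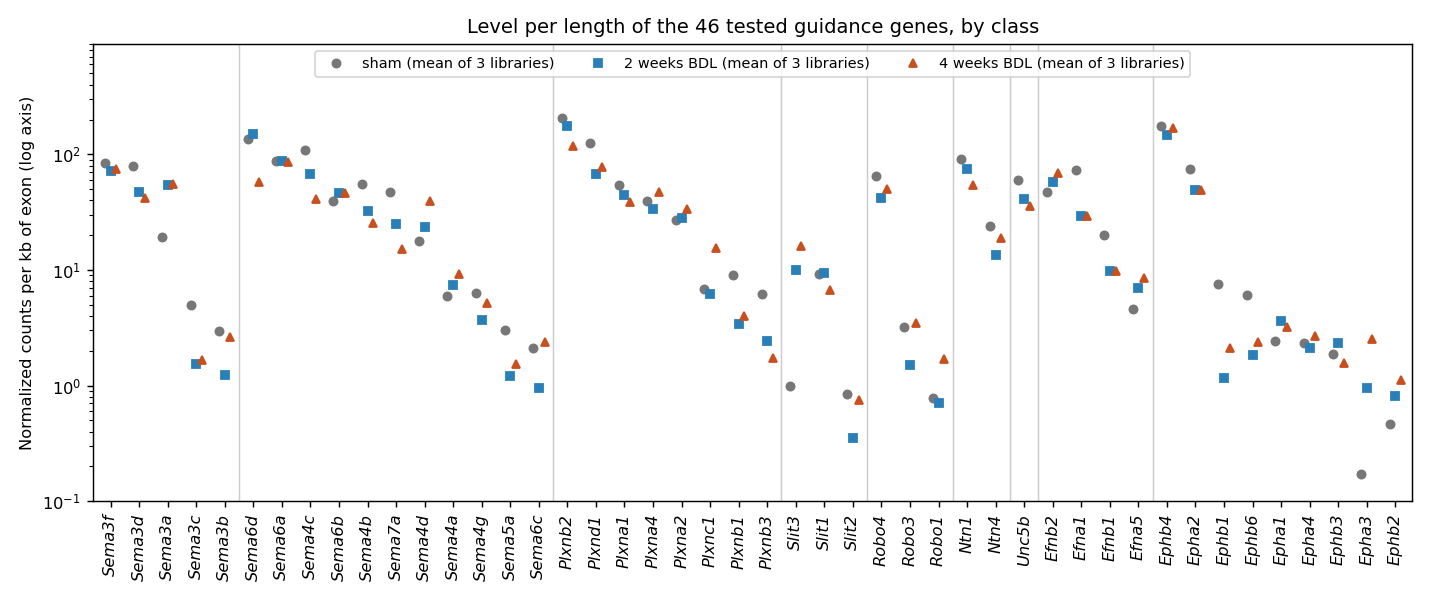
Mean level of the 46 tested guidance genes in sham, 2-week and 4-week libraries, in normalized counts per kb of exon on a log axis, grouped by class (grey lines separate the secreted semaphorins, membrane semaphorins, plexins, Slits, Robos, netrins, Unc5b, ephrins and Eph receptors). Plxnb2 and Ephb4 stand highest, and Slit3 lies far below Slit1 in sham and above it in both ligated groups.

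The comparisons asked how the level of each guidance gene in the sorted cells differed between ligated and sham mice, and between the ligation times. The test was limma on log2(normalized count + 1) over all 11809 genes with a mean of at least 10, with Benjamini-Hochberg adjustment over all of them, and a gene passed at an adjusted p below 0.05. At 4 weeks 2 of the 46 guidance genes passed in limma, Slit3, which rose, and Sema4c, which fell; over all tested genes 1.20% passed. In edgeR the count was 2 as well, where 167 of all tested genes passed, and in DESeq2 it was 7, where 573 did. At 2 weeks 0 of the 46 passed in limma, where 0.0169% of all genes did, and 10 of them, or 21.7%, had an unadjusted p below 0.05 (2 higher and 8 lower), against 8.55% of all genes. In edgeR 0 passed at 2 weeks as well, and in DESeq2 2 did, where 2 and 211 of all tested genes passed. An unadjusted p below 0.05 at 4 weeks was found for 14, or 30.4% (5 higher and 9 lower), against 13.7% of all genes. Between 4 and 2 weeks 0 of the 46 passed in limma, as did 0% of all genes, 4 had an unadjusted p below 0.05 (8.70% against 4.02%), and edgeR and DESeq2 called 0 and 2. Over all tested genes edgeR and DESeq2 called 0 and 76 in that contrast.

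Counted by library, 12 of the 46 genes (26.1%) had sham and 2-week values that did not overlap, 2 higher and 10 lower after ligation, against 17.9% of all tested genes. At 4 weeks the groups did not overlap for 13 genes (28.3%), 5 higher and 8 lower, against 17.0%. Between 4 and 2 weeks there were 5 (10.9%), 3 higher and 2 lower at 4 weeks, against 9.40%. The median log2 fold change of the 46 genes was −0.18 at 2 weeks and −0.27 at 4 weeks, against 0.07 over all tested genes in both contrasts, and 15 and 18 of the 46 lay above 0. That median rests on single libraries: it was 0.00 at 2 weeks without sham replicate 1, and at 4 weeks 0.24 without 4-week replicate 1 and −0.54 without 4-week replicate 3. The ligated groups were compared with the same 3 sham libraries, so the comparisons at 2 and 4 weeks are not independent of each other.

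**Figure D2:**
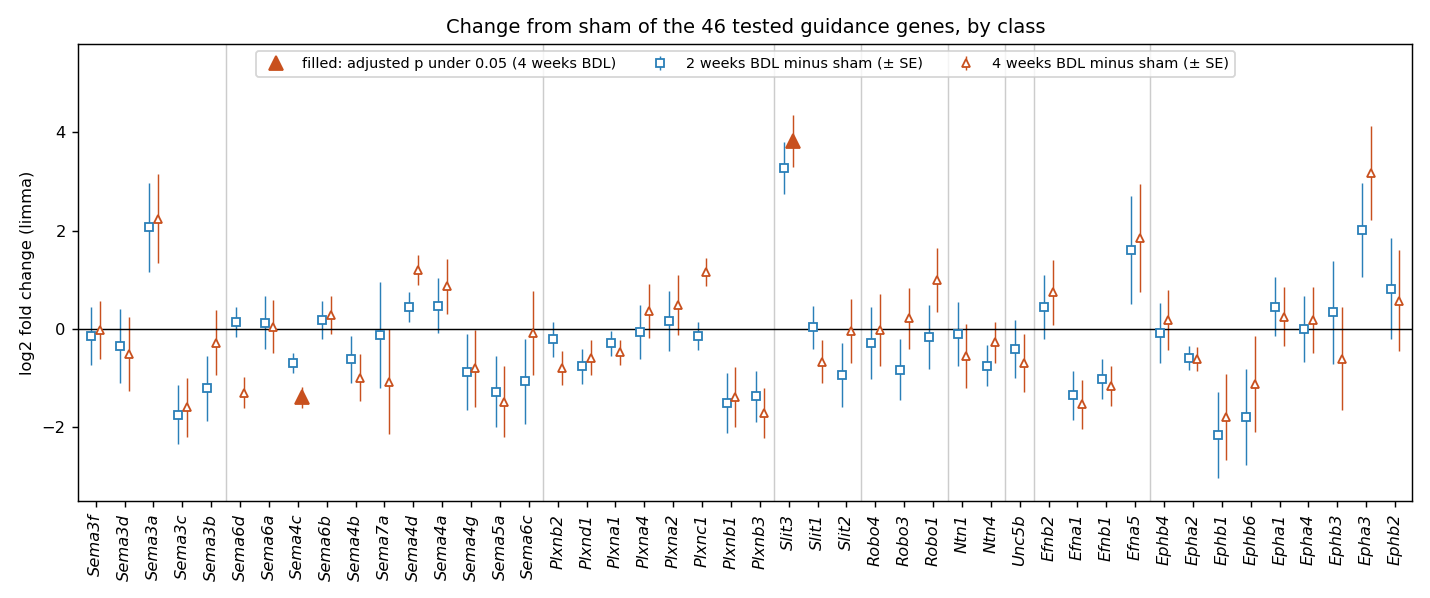
log2 fold change from sham of the 46 tested guidance genes at 2 weeks (squares) and 4 weeks (triangles) of BDL, with limma standard errors, grouped by class. The 2 filled triangles are the genes with an adjusted p below 0.05, Slit3 at 3.82 and Sema4c at −1.39.

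Slit3, a secreted ligand of the Robo receptors, rose after ligation. Its gene (ENSMUSG00000056427) lies on chromosome 11, 35121224 to 35708507 of GRCm38, on the plus strand. Slit3 was at 2.75, 10.5 and 4.67 normalized counts in sham, 71.3, 43.1 and 68.4 at 2 weeks and 50.2, 159 and 82.4 at 4 weeks. Every ligated library exceeded every sham library, and the 4-week libraries spread widely, with replicate 2 the highest. Over 3 libraries each, the mean ± SD was 5.98 ± 4.04 in sham, 60.9 ± 15.5 after 2 weeks and 97.4 ± 56.1 after 4. The rise at 4 weeks was 3.82 ± 0.53 (SE) on the log2 scale (limma, adjusted p = 0.0124; edgeR, adjusted p = 0.0136). At 2 weeks the difference was 3.27 ± 0.53, which did not pass in limma (adjusted p = 0.0946) and passed in DESeq2 (adjusted p = 4.93e-05). The sham libraries held 11 reads of Slit3 in all, against 288 at 2 weeks and 309 at 4 weeks. At 4 weeks the ratio per scaled read was 22.5, with a 95% exact interval from 12.4 to 45.5 that covers counting error only. Pooled reads weigh libraries by depth, and the ratio of the group means at 4 weeks was lower, 16.3. Sham replicate 2 contributed 2 of those 11 reads, and without it the sham mean was 3.71. The call at 4 weeks was lost without 4-week replicate 2 (log2 fold change 3.39, limma, adjusted p = 0.0531) and without 4-week replicate 3 (3.86, adjusted p = 0.0713), when 38 and 9 of all tested genes passed, and in a limma fit of the 2 groups alone (adjusted p = 0.0628). Without sham replicate 2, Slit3 also passed at 2 weeks (3.71, limma, adjusted p = 0.0396). The mean log2 level of markers of stellate cells and fibroblasts was 4.56 to 5.81 in sham, 6.25 to 7.14 at 2 weeks and 5.81 to 7.29 at 4 weeks, so it moved with Slit3, and its part in the rise was not tested. In sorted bulk RNA, a change in the number of cells of one type and a change in RNA per cell cannot be told apart.

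The promoter of Slit3 is shown because Slit3 is the only member that passed in limma with a higher level after ligation. The RefSeq window on GRCm38.p6 (chr11:35121206-35121505, plus strand, 250 bases before to 50 after the annotated start) reads as follows, with capitals for matches to the GC box GGGCGG on either strand.
Slit3 promoter: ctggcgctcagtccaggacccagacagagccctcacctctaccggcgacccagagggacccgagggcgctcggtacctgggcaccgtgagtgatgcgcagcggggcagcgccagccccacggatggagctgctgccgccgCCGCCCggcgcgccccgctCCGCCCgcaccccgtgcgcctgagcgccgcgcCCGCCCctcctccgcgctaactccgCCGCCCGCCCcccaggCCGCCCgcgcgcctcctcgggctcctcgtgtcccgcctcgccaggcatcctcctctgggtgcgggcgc
The window was 78.3% G and C and held 41 CpG and 6 GC boxes, with 0 matches on either strand to the AP-1 letters TGANTCA or the TATA letters TATAAA. Among all 32851 RefSeq windows of this length, 3.46% had as many CpG or more, and 35.7% held a GC box; among the 73 windows of the 57 guidance genes with an entry, 69.9% held one. A match to these letters is a description of the sequence, not a binding site.

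Slit3 and Slit2 each carry a copy of the miR-218 hairpin inside the gene, at chr11:35616816-35616925 and chr5:48223942-48224051, both on the plus strand, and both copies give the same mature 5′ arm. It is shown because miR-218 is known to target Robo1, a receptor of the Slits, with its seed (bases 2 to 8) in capitals; the miRNA itself was not analysed here.
miR-218-5p: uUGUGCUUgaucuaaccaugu

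Neither of the other Slits passed in any contrast. Slit1, best known from the nervous system, was at 52.3, 68.3 and 42.8 normalized counts in sham, 56.6, 54.2 and 54.8 at 2 weeks and 70.6, 17.9 and 29.5 at 4 weeks. Its 2-week libraries lay within the sham range and those of 4 weeks extended on both sides of it. Slit2 was lower still per kb of exon (0.651, against 9.02 for Slit3 and 8.39 for Slit1), and 0 of these 2 genes had an unadjusted p below 0.05 in any contrast. Of the Robo family, Robo4, which is known from vascular endothelium where it stabilises vessels, was at 409, 68.3 and 551 normalized counts in sham, 113, 314 and 239.6 at 2 weeks and 142, 312 and 336 at 4 weeks. Its values ran from the lowest library, sham replicate 2, to the highest, sham replicate 3, within the sham group alone. Robo3, the neighbour of Robo4 on chromosome 9, where the genes end next to each other on opposite strands (37401897 to 37415115 for Robo4 and 37415669 to 37433246 for Robo3), was at 11, 42.1 and 13.2 normalized counts in sham, 6.48, 12.4 and 12.2 at 2 weeks and 12.6, 21.5 and 36.9 at 4 weeks. The 4-week libraries of Robo3 all lay above the 2-week ones, and the groups otherwise overlapped. Robo1, the widely expressed Slit receptor, had mean normalized counts of 12.9 (sham), 11.6 (2 weeks) and 27.9 (4 weeks, where replicate 3 alone had 50.4). No Robo had an unadjusted p below 0.05 in any contrast.

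Among the secreted class 3 semaphorins, 5 of 7 were tested. Sema3f, a ligand of neuropilin-2, was the highest of them per kb of exon, with 76.4, and overlapped between the groups (log2 fold change −0.14 at 2 weeks and −0.01 at 4 weeks). Sema3a, the ligand of neuropilin-1 with a known part in lymphatic valves, was at 338, 26.3 and 432 normalized counts in sham, 339, 1133 and 769 at 2 weeks and 577, 828 and 897 at 4 weeks. The 4-week libraries lay above all sham libraries, and those of 2 weeks overlapped with sham by 2-week replicate 1. The difference at 4 weeks, 2.25 ± 0.90 on the log2 scale, did not pass (limma, adjusted p = 0.303), and it was 0.98 without sham replicate 2, the lowest of the 9 libraries. Sema3c, a class 3 semaphorin known from cardiac outflow development, was lower in ligated libraries, at 23.8, 42.1 and 39.7 normalized counts in sham, 6.48, 6.53 and 19.6 at 2 weeks and 5.49, 11.6 and 18.5 at 4 weeks. Its ligated libraries lay below every sham library at both times, without passing (−1.74 ± 0.60 at 2 weeks, limma, adjusted p = 0.454; −1.59 ± 0.60 at 4 weeks, adjusted p = 0.271). Sema3d, which shares a region of chromosome 5 with Sema3a and Sema3c, was at 834, 121 and 1083 normalized counts in sham, 240.5, 636 and 345 at 2 weeks and 192, 446 and 453 at 4 weeks. The sham libraries of Sema3d held both the highest and the lowest of the 9 values, and its differences from sham (−0.35 and −0.50 on the log2 scale) were smaller than their standard error of 0.75. Sema3b, the neighbour of Sema3f on chromosome 9, was far below it per kb (2.28), and its 2-week libraries lay below all sham libraries without an unadjusted p below 0.05.

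Sema4c, a transmembrane semaphorin and ligand of plexin-B2, fell at 4 weeks of ligation. Its gene (ENSMUSG00000026121) lies on chromosome 1, 36548639 to 36558349 of GRCm38, on the minus strand. Sema4c was at 435, 578 and 481 normalized counts in sham, 287, 365 and 275 at 2 weeks and 199, 172 and 192 at 4 weeks. The groups did not overlap in any of the 3 contrasts, and the 2-week libraries all lay between those of sham and of 4 weeks. The means were 498 ± 73.4, 309 ± 49.0 and 188 ± 14.2 (SD, n = 3 each). Sema4c fell by 1.39 ± 0.21 (SE) on the log2 scale at 4 weeks (limma, adjusted p = 0.0166; edgeR, adjusted p = 0.0161). Neither the difference at 2 weeks, −0.69 ± 0.21, nor that between 4 and 2 weeks, −0.71 ± 0.21, passed (limma, adjusted p = 0.392 and 0.773). The call was lost without 4-week replicate 2 (log2 fold change −1.33, limma, adjusted p = 0.0729) or 4-week replicate 3 (−1.41, adjusted p = 0.0804), and in a limma fit of the 2 groups alone (adjusted p = 0.0680). The exons of Sema4c share 334 bases, 7.27% of their length, with D430040D24Rik on the opposite strand, and since the strand setting of the counting was not given, reads there cannot be told apart. The summed macrophage markers were at 34525 to 80514 normalized counts in sham and 18745 to 42036 at 4 weeks, but the markers on that list did not move together. From sham to 4 weeks the mean of Clec4f went from 10215 to 1110 and that of Cd5l from 10243 to 2069. Lyz2 went from 5379 to 7392 and Cd68 from 1545 to 1356. The part of macrophage transcripts in the fall of Sema4c was not tested.

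RefSeq gives 2 promoter windows for Sema4c on GRCm38.p6, shown as the counterpart of the Slit3 window, on the minus strand and with the same capitals. The first is chr1:36557508-36557807 and the second, farther upstream, chr1:36558332-36558631.
Sema4c promoter 1: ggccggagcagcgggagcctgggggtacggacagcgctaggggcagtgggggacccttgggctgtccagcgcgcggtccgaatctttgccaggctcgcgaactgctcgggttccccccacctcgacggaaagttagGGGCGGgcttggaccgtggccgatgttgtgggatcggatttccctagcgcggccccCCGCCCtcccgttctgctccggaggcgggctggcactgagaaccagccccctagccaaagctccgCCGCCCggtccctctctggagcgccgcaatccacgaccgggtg
Sema4c promoter 2: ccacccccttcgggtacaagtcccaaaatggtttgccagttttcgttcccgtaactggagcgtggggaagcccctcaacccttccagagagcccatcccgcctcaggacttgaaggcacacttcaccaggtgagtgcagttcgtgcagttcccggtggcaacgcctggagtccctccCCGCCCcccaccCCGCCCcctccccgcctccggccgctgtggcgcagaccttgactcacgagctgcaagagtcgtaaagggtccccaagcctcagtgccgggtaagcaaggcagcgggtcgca
They held 3 and 2 GC boxes, were 70.3% and 64.3% G and C, and had 30 and 19 CpG. The second also held 1 match to the AP-1 letters TGANTCA, which 7.81% of all windows and 4.11% of those of guidance genes had.

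The membrane semaphorins of classes 4 to 7 had 11 of 13 members tested, and several stood apart at 4 weeks. Sema6d, a ligand of plexin-A1, was at 1701, 1314 and 1266 normalized counts in sham, 1947, 1305 and 1497 at 2 weeks and 877, 548 and 405 at 4 weeks. The 4-week libraries lay below all others, while sham and 2 weeks overlapped. The differences were −1.29 ± 0.31 from sham (limma, adjusted p = 0.0822) and −1.43 ± 0.31 from 2 weeks (adjusted p = 0.427), and neither passed. Sema4d, also called CD100, a ligand of plexin-B1 on immune and endothelial cells, was at 147, 84.1 and 178 normalized counts in sham, 208, 182 and 149 at 2 weeks and 355, 323 and 237 at 4 weeks. Here the 4-week libraries lay above all others, by 1.20 ± 0.30 over sham on the log2 scale, which did not pass (limma, adjusted p = 0.0975). In DESeq2 both Sema6d and Sema4d passed at 4 weeks (adjusted p = 0.00465 and 0.0141), and in edgeR neither did. Without 4-week replicate 1, the highest of its group, Sema6d also passed in limma (log2 fold change −1.58, adjusted p = 0.0331). Sema6a, a ligand of the A-type plexins A2 and A4, was at 966, 294 and 1034 normalized counts in sham, 459, 960.3 and 870.5 at 2 weeks and 374, 1000.2 and 875 at 4 weeks. It had nearly the same mean in each group, 765, 763 and 749.5, with a low library in each. Among the others, Sema5a lay below all sham libraries at both times (−1.27 and −1.48) without an unadjusted p below 0.05. Sema7a, a membrane-anchored ligand of plexin-C1, had sham values of 236, 10.5 and 224 normalized counts, so that its spread in sham spanned all ligated libraries. Sema4a, Sema4b, Sema4g, Sema6b and Sema6c overlapped between the groups in all contrasts.

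Plexins, the semaphorin receptors, had 8 of 9 members tested, and none passed in limma. Plxnb2, the plexin with the highest level per kb, was at 1603, 2066 and 1077 normalized counts in sham, 1779, 964 and 1352 at 2 weeks and 1275, 759 and 711 at 4 weeks. The sham and ligated groups overlapped, and its difference at 4 weeks was −0.79 ± 0.35 (limma, adjusted p = 0.346). Plxnd1, the receptor of semaphorin 3E in vessels, was at 955, 463 and 1315 normalized counts in sham, 469.7, 509.5 and 497 at 2 weeks and 433, 694 and 582 at 4 weeks. Its 2-week libraries were close together, just above the lowest sham library, and those of 4 weeks lay on both sides of it. Plxnb1, the receptor of Sema4d, was at 74.3, 68.3 and 118 normalized counts in sham, 41.3, 13.1 and 44.0 at 2 weeks and 13.3, 34.9 and 66.4 at 4 weeks. All ligated libraries of Plxnb1 lay below all sham libraries, with differences of −1.51 and −1.39 on the log2 scale (limma, adjusted p = 0.529 and 0.348). Plxnb3 had the same arrangement, at 55.0, 26.3 and 38.2 normalized counts in sham, 19.4, 20.9 and 6.77 at 2 weeks and 8.63, 12.5 and 12.3 at 4 weeks. Its differences were −1.37 and −1.70 on the log2 scale (limma, adjusted p = 0.496 and 0.172), and DESeq2 called the one at 4 weeks (adjusted p = 0.0195). Plxnc1, the receptor of semaphorin 7A, was in contrast highest at 4 weeks, at 44.9, 68.3 and 58.4 normalized counts in sham, 66.6, 49.0 and 40.6 at 2 weeks and 109, 127 and 150.1 at 4 weeks. The 4-week libraries of Plxnc1 lay above all others, by 1.16 ± 0.28 over sham (limma, adjusted p = 0.0822) and 1.31 ± 0.28 over 2 weeks (adjusted p = 0.427), and DESeq2 called it in both contrasts (adjusted p = 0.0113 and 0.0125). Plxna1, Plxna2 and Plxna4, partners of the neuropilins, overlapped between all groups, with log2 fold changes from −0.47 to 0.49 at 4 weeks. Of the exon bases of Plxna1, 10.7% are shared with Gm26811 on the opposite strand, so part of its reads is uncertain.

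**Figure D3:**
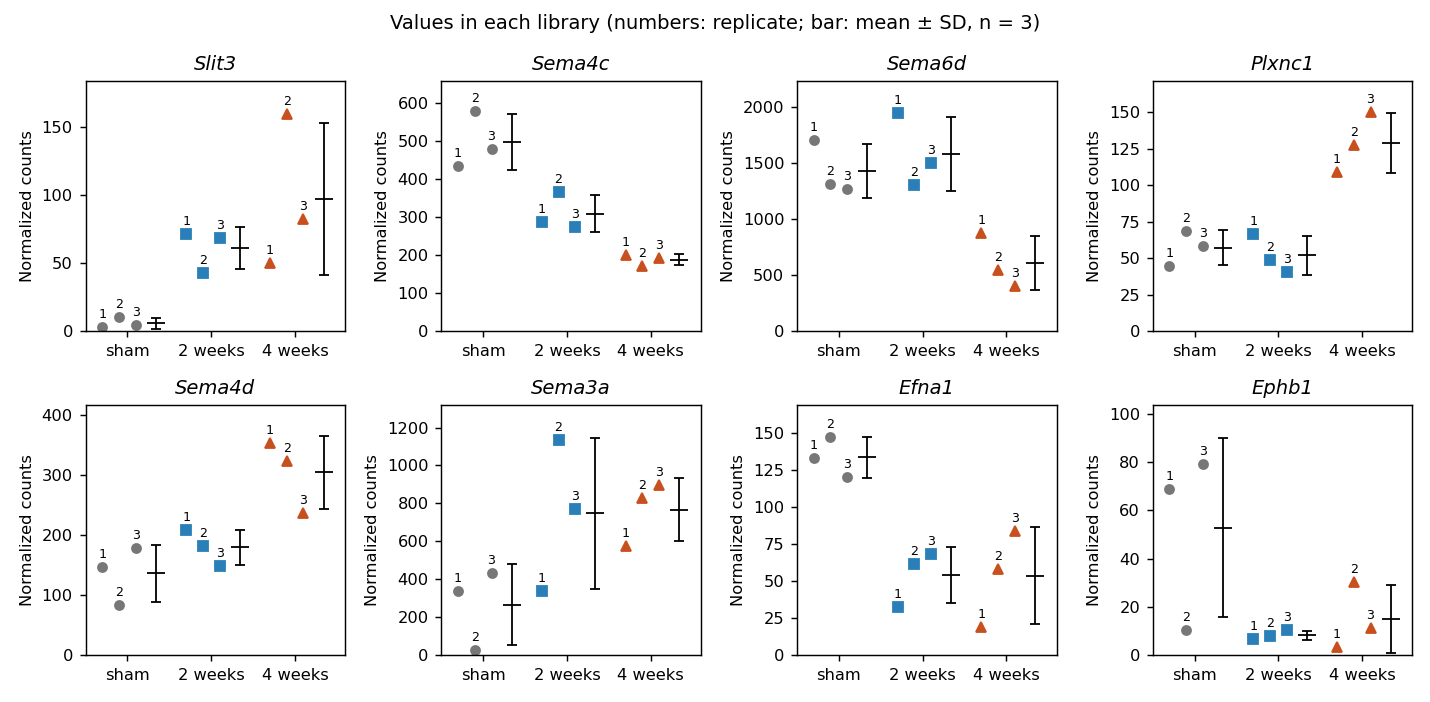
Normalized counts of 8 guidance genes in each library (points, with the replicate number) and the mean ± SD of each group (bars, n = 3), on linear axes that start at 0. Slit3 and Sema4c passed at 4 weeks; Sema6d, Plxnc1 and Sema4d stand apart at 4 weeks, Efna1 and Ephb1 are lower in all ligated libraries than in most or all sham libraries, and sham replicate 2 has the lowest value of Sema3a.

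Of the ephrins, 4 of 8 were tested, and none passed in limma. Efnb2, the transmembrane ephrin of lymphatic valves and collecting vessels, was at 396, 89.4 and 492 normalized counts in sham, 238, 664 and 281 at 2 weeks and 245, 491 and 689 at 4 weeks. Sham replicate 2 was the lowest library, and the groups overlapped. Efna1, a ligand of EphA2 that is bound to the membrane by a lipid anchor, was at 133, 147 and 119.9 normalized counts in sham, 32.4, 61.4 and 68.4 at 2 weeks and 18.8, 58.2 and 83.7 at 4 weeks. Every ligated library of Efna1 lay below every sham library, with differences of −1.35 ± 0.50 at 2 weeks and −1.53 ± 0.50 at 4 weeks (limma, adjusted p = 0.491 and 0.210). Efnb1, a ligand of B-type Eph receptors encoded on the X chromosome, was at 66.9, 63.1 and 76.3 normalized counts in sham, 33.6, 37.9 and 29.1 at 2 weeks and 14.9, 34.9 and 51.7 at 4 weeks. It too was lower in all ligated than in all sham libraries, with differences of −1.02 and −1.16 (limma, adjusted p = 0.534 and 0.248). Efna5 overlapped between the groups and had 0 reads in sham replicate 2.

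Eph receptors had 9 of 14 members tested, and none passed in limma. Ephb4, the receptor of ephrin-B2, was at 709.8, 268 and 1456 normalized counts in sham, 357, 1077 and 611 at 2 weeks and 457, 881 and 1014 at 4 weeks. The sham libraries held both its lowest and its highest value. Epha2, the main EphA receptor of endothelium and epithelium, was at 357, 268 and 431 normalized counts in sham, 235, 241 and 215 at 2 weeks and 206, 187 and 299 at 4 weeks. Its 2-week libraries lay below all sham libraries (−0.59 ± 0.25, limma, adjusted p = 0.556), as its ligand's did, and those of 4 weeks overlapped with sham by replicate 3. Ephb1, a B-type receptor, was at 68.8, 10.5 and 79.4 normalized counts in sham, 6.48, 7.84 and 10.2 at 2 weeks and 3.14, 30.4 and 11.1 at 4 weeks. The 2-week libraries lay below the sham range, though close to sham replicate 2, and the difference of −2.15 ± 0.88 did not pass in limma (adjusted p = 0.534) and passed in DESeq2 (adjusted p = 0.0321). Leaving out 1 library moved it between −3.05 (without sham replicate 2) and −1.65 (without sham replicate 3), neither called in limma. Epha3, an EphA receptor known from mesenchymal cells, was at 3.67, 0 and 0.779 normalized counts in sham, 14.7, 3.92 and 6.09 at 2 weeks and 10.2, 10.7 and 45.5 at 4 weeks. Its ligated libraries were all higher than those of sham, where 5 reads were counted in all, and 4-week replicate 3 was far above the other 4-week libraries. The difference at 4 weeks, 3.18 ± 0.96, did not pass in limma (adjusted p = 0.175) and passed in DESeq2 (adjusted p = 0.0290). The remaining 5 tested Eph receptors (Epha1, Epha4, Ephb2, Ephb3 and Ephb6) overlapped between the groups in all contrasts.

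Of the netrins 2 of 4 were tested, and of the Unc5 receptors 1 of 4, and none passed in limma. Ntn1, netrin-1, was at 876, 158 and 672 normalized counts in sham, 367, 756 and 280.2 at 2 weeks and 188, 282 and 559.9 at 4 weeks. The groups overlapped, with means of 569, 468 and 343. Ntn4, netrin-4, a netrin of basement membranes, was at 74.3, 52.6 and 145 normalized counts in sham, 53.0, 62.7 and 35.9 at 2 weeks and 49.5, 68.1 and 96.0 at 4 weeks. Unc5b, the endothelial receptor of netrin-1, was at 437, 137 and 556 normalized counts in sham, 147, 325 and 295 at 2 weeks and 98.1, 283 and 287 at 4 weeks. Neither the netrins nor Unc5b had an unadjusted p below 0.05 or separate groups in any contrast.

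Several abundant guidance genes varied among libraries with the level of a list of cell type markers. Pearson's r and Spearman's rho were computed over the 9 libraries between each of the 46 genes and the mean log2 level of 3 marker lists, 138 relations in all, with exact permutation tests and Benjamini-Hochberg adjustment over the 138. The permutations ran over all 9 libraries without regard to group, so a group difference shared by gene and markers can give a small p. Ephb4 went with the lymphatic endothelial markers (r = 0.94 and rho = 1, exact permutation p = 2.76e-06 and 5.51e-06, adjusted p = 0.00038 and 0.000761). Efnb2 did as well (r = 0.96 and rho = 0.93, exact permutation p = 9.09e-05 and 0.00075, adjusted p = 0.00251 and 0.0259). Plxna2 (r = 0.96, rho = 0.92) and Sema3f (r = 0.93, rho = 0.98) completed the 4 genes with both adjusted p below 0.05 for that list. Without the 2 libraries farthest from the median marker level, sham replicate 2 and 2-week replicate 1, r of these 4 was 0.88 to 0.93, and r of their deviations from the group means was 0.96 to 0.97. Of the 46 genes, 10 had r above 0.7 over all libraries, without those 2 and for the deviations. Plxna4 (r = 0.96), Robo4 (r = 0.95) and Sema6a (r = 0.94) were among these 10. The lymphatic list holds Nrp2, itself a semaphorin co-receptor, and Reln, which is also in the stellate list. Sinusoidal and pan-endothelial markers were not among the 3 lists, so whether these relations are particular to lymphatic endothelium was not tested. Relations to all 3 lists were computed for the 46 guidance genes only, so the share of all tested genes with such relations is not known.

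Plxnb2 went with the macrophage and Kupffer cell markers (r = 0.97 and rho = 0.98, exact permutation p = 2.48e-05 and 4.96e-05, adjusted p = 0.00139 and 0.00228), and r was 0.95 without sham replicate 2 and 4-week replicate 3. Sema6d had r = 0.90 and rho = 0.85 with the same markers (exact permutation p = 0.00132 and 0.00607, adjusted p = 0.0166 and 0.0645), and r = 0.77 for deviations from the group means. The macrophage level was lowest in 4-week replicates 2 and 3, which also had the lowest values of both genes, and its part in their 4-week values was not tested. Slit3 had r = 0.91 and rho = 0.88 with the stellate cell and fibroblast markers (exact permutation p = 0.000518 and 0.00308, adjusted p = 0.00794 and 0.0531), with r = 0.76 without sham replicates 1 and 3 and 0.76 for deviations from the group means. Sema4c had r = −0.71 and rho = −0.65 with the stellate cell and fibroblast markers (exact permutation p = 0.0375 and 0.0666, adjusted p = 0.178 and 0.270) and r = 0.65 and rho = 0.60 with the macrophage markers (exact permutation p = 0.0624 and 0.0968, adjusted p = 0.239 and 0.326). Without the 2 libraries farthest from the median of each marker level, these r were −0.56 and 0.37, and for deviations from the group means they were −0.05 and 0.07. The levels of lymphatic and macrophage markers were themselves related over the 9 libraries (r = −0.69 and rho = −0.80, exact permutation p = 0.0364 and 0.0138). Ephb4 accordingly had r = −0.72 and rho = −0.80 with the macrophage markers, and Plxnb2 r = −0.76 and rho = −0.78 with the lymphatic ones. A relation to 1 list is therefore not separate from that to the other.

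**Figure D4:**
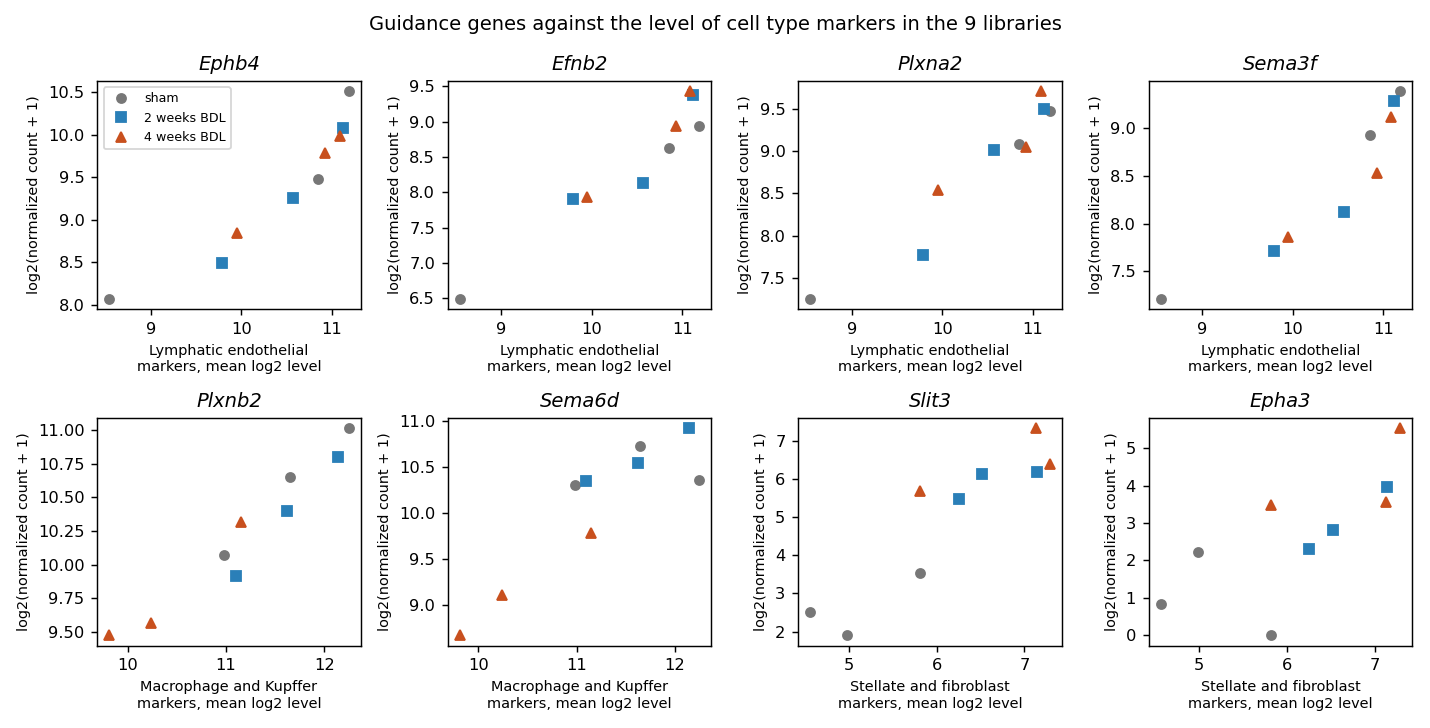
log2(normalized count + 1) of 8 guidance genes against the mean log2 level of lymphatic endothelial markers (Ephb4, Efnb2, Plxna2 and Sema3f), macrophage and Kupffer cell markers (Plxnb2 and Sema6d) or stellate cell and fibroblast markers (Slit3 and Epha3), 1 point per library. In the first 5 panels the gene rises with the markers across libraries of all groups, and for Slit3 and Epha3 the sham libraries lie at the lower left.

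Beyond the members, 81 other genes of these pathways were listed (co-receptors, intracellular mediators and shedding proteases), of which 69 were tested. In limma 0 passed at 2 weeks, 1 at 4 weeks and 0 between 4 and 2 weeks. The one that passed was Vav2, a guanine nucleotide exchange factor that acts downstream of Eph receptors. It was at 543, 699 and 527 normalized counts in sham, 525, 295 and 325 at 2 weeks and 215, 259.7 and 193 at 4 weeks. Like Sema4c, it did not overlap between the groups in any contrast, and it fell by 1.40 ± 0.26 (SE) on the log2 scale at 4 weeks (limma, adjusted p = 0.0377). That call was lost when any library other than 2-week replicate 1 was left out, with log2 fold changes of −1.52 to −1.27 and adjusted p in limma of 0.0540 to 0.149. It was also lost in limma with the replicate number as a block (adjusted p = 0.0808) and in a fit of the 2 groups alone (adjusted p = 0.0736). At 4 weeks 3 were higher and 8 lower at an unadjusted p below 0.05. These counts, 1 and 11 of 69, are near the shares over all tested genes, 1.20% and 13.7%, so the values of single genes are given as a description. The higher ones were Neo1, the netrin receptor neogenin (1.05), Tiam1, a Rac exchange factor (1.92), and Furin, a protease that cleaves semaphorins (0.67). Cd72, the receptor of Sema4d on immune cells, was lower, with a difference of −1.94 ± 0.44 that did not pass (limma, adjusted p = 0.0690). Vav2, Nck2 (−1.24), Arhgap39 (−1.09), Vasp (−0.91) and Srgap2 (−0.48) were also among the 8 lower. At 2 weeks 1 was higher and 3 lower at an unadjusted p below 0.05, and between 4 and 2 weeks 1 and 5. Over all tested genes the shares in these contrasts were 8.55% and 4.02%. The neuropilins Nrp1 and Nrp2 overlapped between all groups, with means of 351, 331 and 318 for Nrp1 and of 2933, 1407 and 1585 for Nrp2.

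The 20 guidance genes below a mean of 10 normalized counts were Sema3e, Sema3g, Sema4f, Sema5b, Plxna3, Robo2, Efna2, Efna3, Efna4, Efnb3, Epha5, Epha6, Epha7, Epha8, Epha10, Ntn3, Ntn5, Unc5a, Unc5c and Unc5d. Just inside the minimum lay Ephb2, with a mean of 10.1, and just outside it Unc5a, with 9.96, followed by Robo2, with 9.37. Of these 20, 12 had their highest value in 4-week replicate 3, as did 48% of the 8959 genes of the whole table with a mean above 0 and below 10, so low values in that library ran high in general. Robo2, a Slit receptor known from the nervous system, was at 8.25, 0 and 1.56 normalized counts in sham, 5.3, 2.61 and 4.74 at 2 weeks and 8.63, 28.7 and 24.6 at 4 weeks. Among the 46 tested genes the highest value fell in sham replicate 3 for 13, in sham replicate 2 for 10 and in 4-week replicate 3 for 10. The same count over all tested genes was not made, so whether this is particular to the guidance genes is not known.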

How the data were processed

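RNA sequencing libraries of 3 sham, 3 2-week and 3 4-week samples were analysed. Per the submitters' processing notes, reads were handled with DESeq2 1.22.1, StringTie 1.3.3b, HISAT2 2.1.0 and Trim Galore 0.5.0, and mm10 is named as genome; in which order, with which annotation and with which strand setting is not given in the sources used here. For each gene the deposited table held normalized counts, a signal that the authors had scaled by 1 factor per library. Division by the smallest value above 0 in each column gave whole reads for 100.0% of 197424 values within 0.001. Where 0 reads were counted, up to 3 are allowed, equal to 15.8 normalized counts in sham replicate 2 and 1.77 to 3.69 elsewhere; floors and intervals cover counting error only.

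Log2(normalized count + 1) values were tested with limma 3.58.1 (R 4.3.3), with a mean per group over all 9 libraries, a trended empirical Bayes step, two-sided p-values and the Benjamini-Hochberg method over 11809 genes whose mean was 10 or more. The fold changes are on that scale, which can understate or overstate changes of genes with few reads. At 4 weeks Slit3 had 3.82 in limma and 4.42 in edgeR. Efna5, with 0 reads in sham replicate 2, had 1.86 in limma and 0.65 in edgeR. The labels do not tie each library to a named animal, so p-values measure the spread between these samples. Alternatives were other pseudocounts, filters and scalings, fits of 2 groups, library quality weights, a replicate block, edgeR 4.0.16 (quasi-likelihood) and DESeq2 1.42.0 on the recovered reads, and leaving out each library. Leaving out 4-week replicate 1 together with sham replicate 2, and edgeR without sham replicate 2, were added after seeing the data. The procedure was tested on simulated counts, drawn independently for each gene with the same spread in every library. That test does not cover the differences in library quality and marker levels seen here. Replicate libraries differed beyond sampling noise, so none was counted as a repeat.

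The guidance genes, the marker and pathway lists and the rules were chosen with earlier results of these data known. Values in every library are given for genes that passed, for those with separate groups and an unadjusted p below 0.05 in a contrast, and for the 2 highest of each class, 26 in all; Robo2, Sema7a in sham and Vav2 were added. Coordinates are from GENCODE M21 (GRCm38) and sequences from RefSeq. Other lists checked were sinusoidal and pan-endothelial (summed marker levels of 4716 to 20351 and 3659 to 8637 normalized counts over the libraries), mesothelial (68.3 to 513), cholangiocyte (626 to 2870), hepatocyte (967 to 14604), neutrophil and monocyte (234 to 722), T and NK cell (0.917 to 30.8) and B cell (8.84 to 33.2).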

Additional observations from a re-analysis of the deposited data

How the results depend on the processing

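Slit3 and Sema4c at 4 weeks kept their direction under all 22 alternatives, with log2 fold changes of 3.14 to 4.72 and −1.49 to −1.28, and each passed under 19 of them. At 2 weeks the count of guidance genes that passed, 0, became 8 with library quality weights, 2 in DESeq2, and 3 without sham replicate 2 and 4-week replicate 1 together. Over all 11809 tested genes 1112, 211 and 175 passed in these settings, against 2 in the main fit. At 4 weeks the count of 2 became 0 in a fit of the 2 groups alone, 14 with library quality weights, 7 in DESeq2 and 4 without those 2 libraries together. The counts over all tested genes in these settings were 53, 1608, 573 and 457, against 142 in the main fit. Between 4 and 2 weeks the count of 0 became 3, 2 and 2 with weights, in DESeq2 and without those 2 libraries. Of all tested genes 349, 76 and 213 passed there, against 0 in the main fit. Leaving out 1 library gave 0 to 1 at 2 weeks (1 without sham replicate 2), 0 to 3 at 4 weeks (0 without 4-week replicate 2 or 3) and 0 between 4 and 2 weeks. The cause of these changes was not tested, and fits that leave out libraries also rest on fewer samples. The weights were 0.139 for sham replicate 2 and 0.235 for 4-week replicate 1. With the replicate number as a block, 0, 2 and 0 guidance genes passed in the 3 contrasts, while the count over all genes at 4 weeks went from 142 to 84. The deviations of libraries with the same number correlated at −0.445 to 0.228, so the numbers were not taken to pair the samples. TMM scaling moved the median of all genes between 4 and 2 weeks from 0.01 to −0.09 and that of the guidance genes from 0.14 to 0.03. Alternative values of single genes were counted only for differences that passed, or had separate groups and an unadjusted p below 0.05, in the main fit. Of these 542 values, 503 kept their direction and side of the threshold, 33 came to pass, 6 no longer passed, and none reversed. Those differences were chosen from the same data, so the counts do not measure how stable the other guidance genes are. Depth limited low genes most in sham replicate 2, where 3 reads came to 15.8 normalized counts, above the sham mean of Slit3.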
